A study of Mus musculus with 12 samples.

Results

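The genes described are the mouse heat shock proteins and DnaJ co-chaperones outside the main stress chaperones of the endoplasmic reticulum. They were chosen by gene symbol alone: symbols that start with Hspa, Hspb, Hspd, Hspe or Hsph and a digit, with Hsp90, or with Dnaja, Dnajb or Dnajc and a digit. This gave 64 of 17285 genes, and leaving out Hspa5, Hsp90b1 and Dnajb9 left 61 members, 58 protein-coding genes and 3 processed pseudogenes. A further 11 protein-coding genes with such names, Hspa1l and Hspb3 among them, were not analysed here. The samples come from the mouse melanoma line 781, isolated from tumors of mice that carried Tyr-CreERT2 and BRAF CA, which all groups share. There were 12 samples of C57BL/6 background: 3 of cultured Nfe2l2 knockout cells, 3 of cultured Nfe2l2 wildtype cells, and 3 tumors grown from each of these under the skin of immunocompetent C57BL/6 mice whose age the labels do not give. Nfe2l2 encodes NRF2, the main transcription factor of the oxidative stress response. The knockout cells were made with a pair of guide RNAs used together, and a single set of knockout and wildtype cells was injected.

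The values used are the authors' means: 1 mean log2 CPM (counts scaled to the size of the library) for each gene in the tumors, and 1 in the cultured cells. Each mean covers knockout and wildtype samples alike. The effect of the knockout on these genes was therefore not analysed here, and no standard deviation, n or p-value can be given. The tables of tumors and cultured cells were normalized separately. Levels set side by side across them are a description with no test.

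Heat shock proteins are molecular chaperones that bind unfolded or partly folded proteins. HSP70 proteins bind and release their clients in a cycle driven by ATP, DnaJ proteins (HSP40) deliver clients to HSP70 and start the hydrolysis, and HSP110 proteins exchange the nucleotide. HSP90 acts late in folding, on many kinases and hormone receptors, while small heat shock proteins hold unfolded proteins without ATP and the mitochondrial chaperonin encloses them in a chamber. Many of these genes are induced by heat shock factor 1, which binds heat shock elements, alternating repeats of GAA and TTC.

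Exact heat shock elements were found near the starts of 4 members. The search was for GAA, any 2 bases, TTC, any 2 bases and GAA, or for its reverse complement that starts and ends with TTC, which between them read both strands, with overlapping matches allowed. It covered RefSeq promoters of GRCm38.p6 from 250 bases before to 50 bases after each start. Of the 61 members, 45 had a promoter in the table, and 4 of these (8.89%) held an element. Those with no entry there were Hsp90aa1, Hsp90ab1, Hspa8, Hspa9, Hspa13, Hspb2, Hspd1-ps3, Hspd1-ps4, Dnajc2, Dnajc5, Dnajc11, Dnajc12, Dnajc18, Dnajc19-ps, Dnajc22 and Dnajc30. Over the promoters of all genes of the files the share was 0.568% (62 of 10915 genes), and over all genes with a RefSeq promoter it was 0.662%. The 4 genes were Hspd1 and Hspe1, the large and small subunit of the mitochondrial chaperonin, Hsph1 of the HSP110 class and Dnajb6, a DnaJ protein that limits protein aggregation. Their elements are shown because the element is the promoter feature that was searched for, with the matched bases in capitals and each sequence written 5′ to 3′ on the strand of its gene:
Hspe1, chr1:55088053-55088082, plus strand: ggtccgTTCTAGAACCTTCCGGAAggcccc
Hspd1, chr1:55088053-55088082, minus strand: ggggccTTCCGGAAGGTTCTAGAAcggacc
Dnajb6, chr5:29735844-29735872, plus strand: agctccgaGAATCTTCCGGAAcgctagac
Hsph1, chr5:149636280-149636308, minus strand: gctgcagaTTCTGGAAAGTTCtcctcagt

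Hspd1 and Hspe1 lie head to head on chromosome 1 and share this element, which holds 2 overlapping matches. It begins 89 bases before the start of Hspe1 and 144 bases before the start of Hspd1. The element of Dnajb6 begins 46 bases before the start used, and that of Hsph1 lies 15 bases after it. With 1 mismatch allowed in an outer unit, 12 of 45 members (26.7%) held a match, against 4.77% of the genes of the files. A match is a description of the sequence and does not show that a factor binds there. Among the 12 matches were the strongly heat-inducible genes Hspa1a and Hspa1b and also Hspb1, which encodes the small heat shock protein HSP25. Hspa1a and Hspa1b are neighbouring copies on chromosome 17 whose windows are identical:
Hspa1a, chr17:34972228-34972290, minus strand: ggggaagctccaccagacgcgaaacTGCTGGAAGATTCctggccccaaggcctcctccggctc
Hspa1b, chr17:34959310-34959372, minus strand: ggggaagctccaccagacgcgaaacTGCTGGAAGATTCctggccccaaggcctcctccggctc
Hspb1, chr5:135887777-135887839, plus strand: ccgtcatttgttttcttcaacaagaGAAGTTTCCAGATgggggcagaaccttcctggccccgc

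A few abundant chaperones carried most of the signal. Of the 61 members, 57 were above a mean log2 CPM of 1 in the tumors and 53 in the cultured cells, that is 93.4% and 86.9%, against 82.2% and 74.8% of all genes. The median member had a mean log2 CPM of 5.77 in the tumors and 5.70 in the cultured cells, where the median of all genes was 4.30 and 4.11. Summed over members, the linear values made up 0.800% of the total in the tumors and 1.26% in the cultured cells. Hsp90ab1 and Hspa8 gave 33.7% of the members' sum in the tumors, and Hsp90ab1 and Hspa9 gave 42.2% in the cultured cells. The 5 members with the highest levels gave 53.4% in the tumors and 65.1% in the cultured cells. Over the 61 members, the levels of both tables had a Pearson's r of 0.96 and a Spearman's rho of 0.96, against 0.91 and 0.91 over all genes. These correlations are across genes of the same tables, and genes are not independent replicates.

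**Figure D1:**
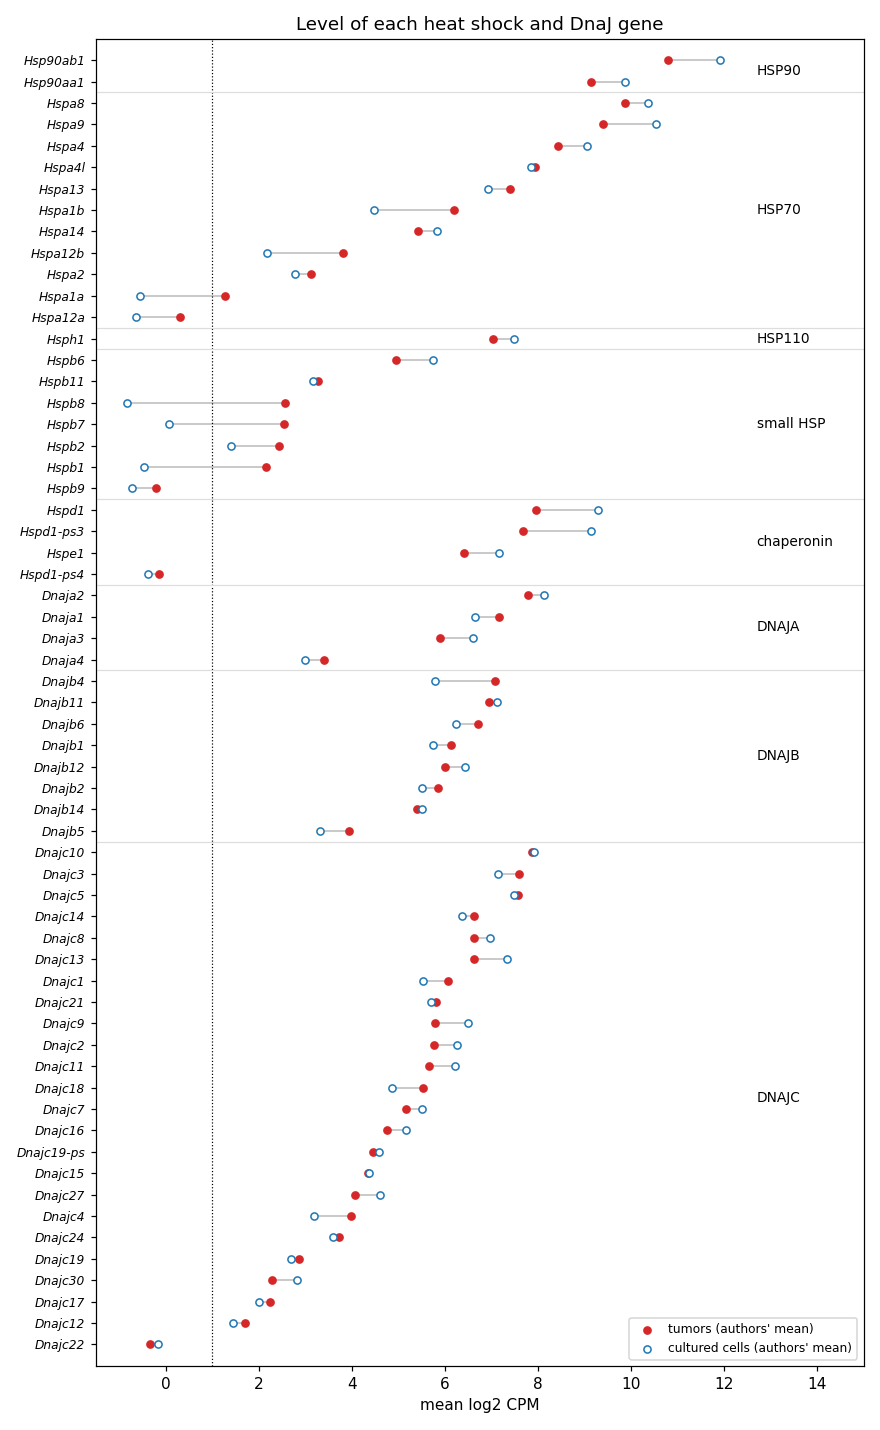
Mean log2 CPM (x axis) of each of the 61 genes (rows, grouped by class), with filled points for tumors and open points for cultured cells. Each point is 1 mean of the authors over knockout and wildtype samples and has no error bar. The dotted line marks a level of 1. Hsp90ab1 has the highest level in both, and the widest gap is that of Hspb8.

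Higher and lower levels nearly balanced over all members. In the tumors, 32 of 61 had a higher level, against 55.9% of all genes, and 29 a lower one. The median difference in mean log2 CPM, tumors minus cultured cells, was 0.09 over members and 0.10 over all genes. Among the 53 members above 1 in both tables it was −0.041, where it was −0.03 over all such genes, so that the sign of the members' median depends on which members are counted. In that group 4 members were higher by more than 1 (7.55%), against 8.31% of all genes, and 4 were lower by more than 1 (7.55%), against 4.57%. Counted among the 4 lower ones are both Hspd1 and its processed pseudogene Hspd1-ps3, which may hold reads of Hspd1. These shares rest on 4 members each, and nothing further is read from them.

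The depth behind these means could be read from the low values. In the cultured cells, all 4452 genes under 40 reads lay on equal steps above the lowest value to within 0.05 of a step, and in the tumors 2683 of 3210 such genes (83.6%) did. The lowest value equals 12 steps, as 2 added reads for each of 6 libraries would give. On this reading, taken from the values and not stated in the sources, a step is 1 read summed over the 6 libraries of a table. The sums are then about 24160000 reads for the tumors and 24850000 for the cultured cells, on average 4030000 and 4140000 reads a library. The depth of single libraries is unknown. Because of the added reads, the mean log2 CPM understates the gap between low levels, and approximate read totals are given below for members near the floor. Several tumor totals were not whole on this scale, such as 131.35 for Hspb8 and 328.51 for Hspa12b. Totals were rounded to whole reads before the intervals of ratios were made.

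The largest HSP90 and HSP70 genes were more abundant in the cultured cells. Hsp90ab1 (chromosome 17 of GRCm38, 45567775 to 45573271), the constitutive cytosolic HSP90, had a mean log2 CPM of 10.79 in the tumors and 11.91 in the cultured cells. Its inducible relative Hsp90aa1 (chromosome 12, 110690605 to 110702728) had one of 9.15 and 9.88. The differences in mean log2 CPM, tumors minus cultured cells, were −1.12 and −0.73, where the median over 12676 genes above 1 in both tables was −0.03. Only 3.30% of those genes had a lower difference than Hsp90ab1. Per kilobase of exon, Hsp90ab1 was the highest member in both tables, with a log2 CPM per kb of 9.21 and 10.3. For Hsp90aa1, 47.5% of the 50-base stretches of its transcripts also occur in transcripts of other genes, so that its reads may be shared with pseudogenes.

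Hspa9, the mitochondrial HSP70 (mortalin), stood at a mean log2 CPM of 9.40 in the tumors and 10.54 in the cultured cells, a difference of −1.14. Hspa8, the constitutive cytosolic HSC70, stood at 9.88 and 10.38 on the same scale, a difference of −0.49. For Hspa8, 38.6% of the 50-base stretches also occur in transcripts of other genes. Hspa4, an HSP110-like exchange factor, was at 8.44 and 9.06, and its relative Hspa4l at 7.93 and 7.86. Hsph1, the only member named HSP110, was at 7.03 and 7.49. Hspa14, which works at the ribosome, was at 5.43 and 5.83. Of these 6 genes, 5 were lower in the tumors, against 51.7% of genes above 1 in both tables, and Hspa4l was nearly level. They are not all of the HSP70 genes at such levels. Hspa13, at 7.40 in the tumors and 6.94 in the cultured cells, and Hspa1b, at 6.20 and 4.47, were higher in the tumors. Over all 11 HSP70 genes, 7 were higher in the tumors, where 55.9% of all genes were, and 4 lower, and the 9 above 1 in both tables had a median difference of 0.07.

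The stress-inducible HSP70 genes went the other way. Hspa1b (chromosome 17, 34956436 to 34959238) had a mean log2 CPM of 6.20 in the tumors and 4.47 in the cultured cells, a difference of 1.73 that was larger than that of 96.6% of the genes above 1 in both tables. Its copy Hspa1a (chromosome 17, 34969190 to 34972156) was at 1.27 and −0.55, or about 46 and 5 reads over all libraries. Of the 50-base stretches of Hspa1a, 60.3% are found in other genes, chiefly Hspa1b, so that reads of the pair cannot be fully told apart. Taken as a sum, Hspa1a and Hspa1b had about 1815 reads in the tumors and 544 in the cultured cells, a ratio of 3.43 once scaled to the sum of each table (95% interval 3.12 to 3.79, exact binomial). Intervals of this kind cover counting error only and not the spread between tumors or cultures.

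Hspa13, Hspa2, Hspa12a and Hspa12b also had a higher level in the tumors. Hspa12b, known from endothelial cells, was at a mean log2 CPM of 3.82 in the tumors and 2.18 in the cultured cells, about 329 and 101 reads. The endothelial markers Pecam1 and Cdh5 had 1254 and 1183 reads in the tumors and 5 reads each in the cultured cells. Whether endothelial RNA has a part in the level of Hspa12b was not tested. Hspa13, a microsomal HSP70, was at 7.40 and 6.94 in mean log2 CPM, and Hspa2, best known from the testis, at 3.12 and 2.78. Hspa12a was near the floor, with about 18 and 4 reads.

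Small heat shock proteins showed the widest gaps, at low levels. Of 7 members, 6 had a higher level in the tumors, where 55.9% of all genes did. That share is not a like background for genes near the floor. In the cultured cells 523 genes were at the lowest value, and in the tumors 8. Only 3 of the 7 were above 1 in both tables. Of these 3, 2 were higher in the tumors, and their median difference was 0.10. Hspb8 (chromosome 5, 116408491 to 116422864), which works with BAG3 in selective autophagy, had about 131 reads in the tumors and 2 in the cultured cells. That is a mean log2 CPM of 2.57 and −0.83 and a scaled ratio of 67.4 (95% interval 18.3 to 562, exact binomial). Hspb1 had about 96 and 6 reads, a ratio of 16.5 (7.29 to 46.0), and 48.8% of its 50-base stretches also occur in a pseudogene. Hspb7, which is known from heart and skeletal muscle, had about 130 and 14 reads, a ratio of 9.56 (5.50 to 17.97).

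Hspb2, also a muscle protein, had about 118 reads in the tumors and 54 in the cultured cells. Hspb9, known from the testis, had about 9 and 3 reads, and its ratio of 3.09 had an interval from 0.770 to 17.7 that includes 1. Hspb11, a subunit of intraflagellar transport with a name of this family, was level at 220 and 211 reads. Hspb6, a muscle-rich member, was the exception: its mean log2 CPM was 4.94 in the tumors and 5.74 in the cultured cells, and it was the most abundant small heat shock gene per kb in both. Of the 4 skeletal muscle markers looked for, 3 were among the 17285 genes, Des, Ckm and Myh4. They had 170, 35 and 160 reads in the tumors and 0 reads in the cultured cells, which allows up to 3 reads. These markers were thus present in the tumors, where Hspb2 and Hspb7 were higher than in the cultured cells and the muscle-rich Hspb6 was lower. The part of muscle RNA in the levels of these small heat shock genes was not tested. In bulk tissue, a different number of cells of a type and a different amount of RNA per cell cannot be told apart.

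**Figure D2:**
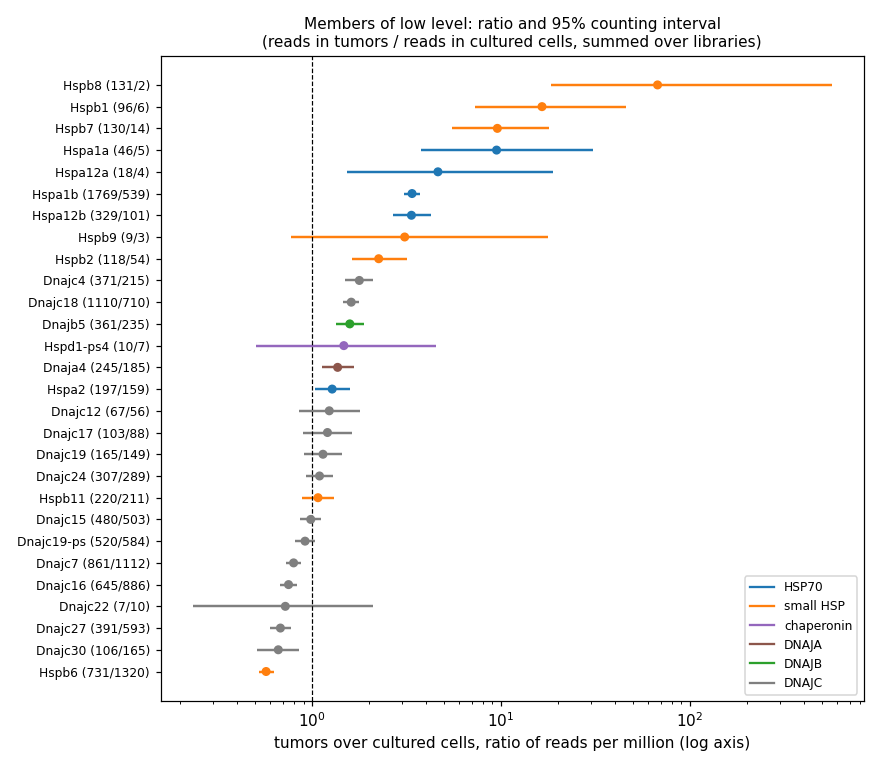
Ratio of CPM with the added reads taken off, tumors over cultured cells (x axis, log scale), for the 28 members with under 1000 reads in at least 1 table, with reads summed over libraries in brackets. Bars are 95% exact binomial intervals for counting error only. Hspb8, Hspb1 and Hspb7 lie farthest to the right, and 10 of the 28 intervals, those of Hspb9 and Dnajc22 among them, include 1.

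Most of the chaperones counted here as mitochondrial were lower in the tumors. Hspd1 (chromosome 1, 55077835 to 55088243), the chaperonin HSP60, had a mean log2 CPM of 7.95 in the tumors and 9.30 in the cultured cells, a difference of −1.34 that only 1.70% of genes above 1 in both tables went below. Its partner Hspe1 (chromosome 1, 55088132 to 55091307), the lid HSP10, stood at 6.42 and 7.17, a difference of −0.75. The processed pseudogene Hspd1-ps3 on chromosome 11 was listed at 7.69 and 9.15, and 60.7% of its 50-base stretches occur in other genes, chiefly Hspd1. Its reads may therefore be reads of Hspd1, of whose own 50-base stretches 39.7% occur in other genes. Summed, Hspd1 and Hspd1-ps3 gave 453 CPM, with the added reads taken off, in the tumors and 1195 CPM in the cultured cells, a log2 ratio of −1.40. A further copy, Hspd1-ps4, had about 10 and 7 reads.

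Also counted here as mitochondrial, from a list written by hand that may not be complete, were the DnaJ proteins Dnaja3, Dnajc11, Dnajc15, Dnajc19 and Dnajc30. With Hspa9, Hspd1 and Hspe1, 7 of these 8 genes were lower in the tumors, where 51.7% of the genes above 1 in both tables were, with a median difference of −0.64 in mean log2 CPM, a grouping made after the values were seen. Dnaja3, a partner of Hspa9 also called Tid1, was at 5.89 and 6.61. Dnajc11, which acts at the cristae, was at 5.66 and 6.21, and Dnajc30 at 2.29 and 2.83. Dnajc15 was nearly level at 4.35 and 4.37. Dnajc19, of the inner membrane import motor, was at 2.87 and 2.70, and the pseudogene Dnajc19-ps, 64.6% of whose 50-base stretches occur in other genes, was listed at 4.46 and 4.58. Summed, Dnajc19 and Dnajc19-ps had a log2 ratio of −0.06.

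**Figure D3:**
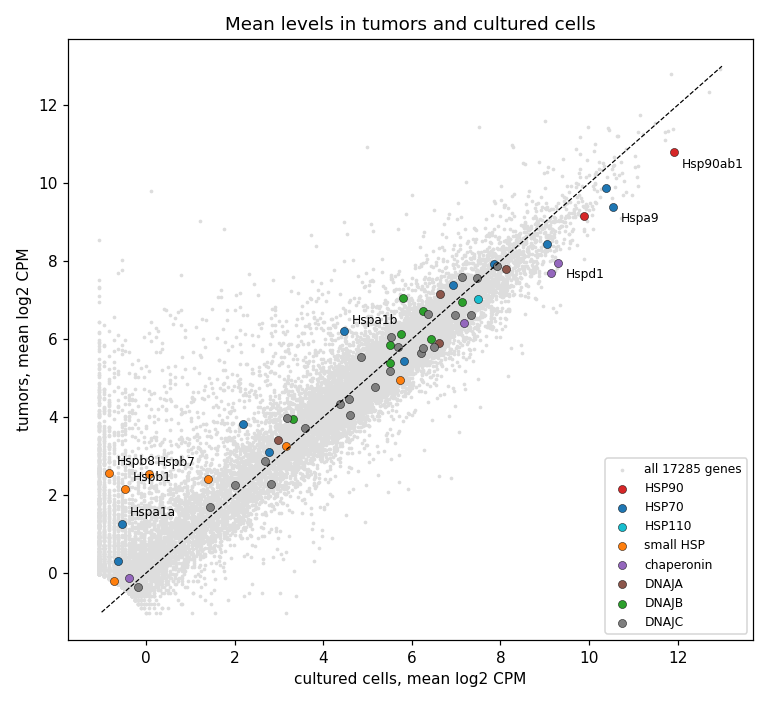
Mean log2 CPM in tumors (y axis) against cultured cells (x axis) for all 17285 genes (grey) and the 61 members (coloured by class), with a dashed line of equal level. Hsp90ab1, Hspa9 and Hspd1 lie below the line at high level, and Hspb8, Hspb1, Hspb7, Hspa1a and Hspa1b above it.

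Of the 12 DnaJ genes of the DNAJA and DNAJB classes, only Dnajb4 differed by more than 1 in mean log2 CPM. Among all genes above 1 in both tables, 8.31% were higher and 4.57% lower by more than 1. Nothing further is read from this count of 1. Among type A proteins, which resemble bacterial DnaJ, Dnaja2 was the highest per kb, at a mean log2 CPM of 7.79 in the tumors and 8.12 in the cultured cells. Dnaja1 was at 7.16 and 6.64 and Dnaja4 at 3.41 and 2.99. All 8 DNAJB genes were above 1 in both tables, against 12676 of 17285 genes. In the tumors 5 were higher and 3 lower, where 6126 of the 12676 genes above 1 in both tables were higher. Their median difference was 0.36, where it was −0.03 over those 12676 genes. With only 8 genes, nothing further is read from this. Dnajb4, a cytosolic partner of HSP70, had the largest gap, at 7.07 in the tumors and 5.80 in the cultured cells, a difference of 1.27. Dnajb1, the main heat-inducible HSP40, was at 6.14 and 5.75, and Dnajb6, which carries an exact heat shock element, at 6.72 and 6.24. Dnajb5 was at 3.95 and 3.31, and Dnajb2, a ubiquitin-binding form, at 5.85 and 5.51. The ER membrane proteins Dnajb12 and Dnajb14 were at 6.00 and 6.43, and at 5.40 and 5.51.

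DNAJC proteins share little beyond the J domain. Of 24 genes, 23 were above 1 in both tables, against 12676 of 17285 genes. Of these 23, 15 differed by 0.5 or less in mean log2 CPM (65.2%, near the 60.6% of all genes above 1 in both). None differed by more than 1, where 8.31% of all genes above 1 in both were higher and 4.57% lower by more than 1. With only 23 genes, nothing further is read from this. Dnajc10, a disulfide reductase of the endoplasmic reticulum, was the highest gene of the class by mean log2 CPM, at 7.88 in the tumors and 7.92 in the cultured cells. Its neighbours in that organelle were Dnajc3, an inhibitor of the kinase PERK and its relatives, at 7.60 and 7.14, Dnajc1 at 6.07 and 5.52, and the DNAJB gene Dnajb11 at 6.96 and 7.12. With Hspa13, 3 of these 5 genes were higher in the tumors and 2 lower. All 5 were above 1 in both tables, and 6126 of the 12676 such genes were higher. Their median difference was 0.46, where it was −0.03 over the 12676 genes. This grouping of 5 genes was not planned beforehand, and nothing further is read from it.

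Members of the DNAJC class with a higher level in the tumors included Dnajc4, at a mean log2 CPM of 3.99 in the tumors and 3.19 in the cultured cells, and Dnajc18, at 5.54 and 4.86. Higher in the cultured cells were Dnajc9, which carries histones, with 5.79 and 6.50 in the same order, and Dnajc13, an endosomal protein, at 6.62 and 7.33. Dnajc27 was at 4.06 and 4.61, and the ribosome-bound Dnajc2 at 5.77 and 6.25. Little apart were Dnajc5, the cysteine string protein, at 7.57 and 7.48, Dnajc21, of ribosome assembly, at 5.81 and 5.70, and Dnajc24, of diphthamide synthesis, at 3.72 and 3.60. The splicing-linked Dnajc8 was at 6.63 and 6.98 and Dnajc17 at 2.25 and 2.01. Dnajc7 was at 5.18 and 5.50, Dnajc14 at 6.64 and 6.36, and Dnajc16 at 4.76 and 5.18. The lowest were Dnajc12, at 1.71 and 1.45, and Dnajc22, with about 7 reads in the tumors and 10 in the cultured cells.

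**Figure D4:**
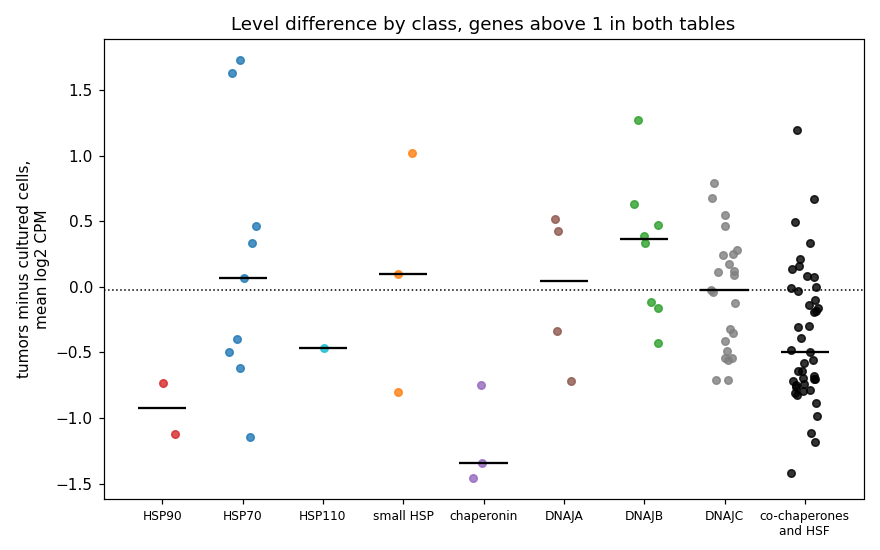
Difference in mean log2 CPM, tumors minus cultured cells (y axis), by class, for members and co-chaperones above 1 in both tables. Points are genes, bars are medians over genes, and the dotted line is the median of 12676 genes at −0.03. The chaperonin and HSP90 genes lie below the line, and the bar of the co-chaperones is at −0.50.

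Ranks and sums showed different sides of the members. The members with the highest levels were among the lower ones, so that the members' share of all counts was smaller in the tumors although their median level was not (5.77 and 5.70). Per kb, the same 10 genes ranked highest in both tables: Hsp90ab1, Hspa8, Hspa9, Hsp90aa1, Hspd1-ps3, Hspd1, Dnaja2, Dnajc19-ps, Hspa4 and Hspe1. The pseudogenes among them may rest on reads of their parent genes.

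The rest of the folding machinery leaned towards the cultured cells. Of a list of 46 co-chaperones, cytosolic chaperonin subunits and heat shock factors, 45 were among the 17285 genes. Above 1 in both tables were 43, against 12676 of the 17285 genes. Of these, 34 were lower and 9 higher in the tumors, against 51.7% lower among all such genes, with a median difference of −0.50. All 8 subunits of the cytosolic chaperonin CCT were lower, by −0.89 to −0.64. Cct2 and Cct5 followed the collagen chaperone Serpinh1 as the highest of the list per kb in both tables, Serpinh1 at a mean log2 CPM of 9.90 in the tumors and 10.58 in the cultured cells. Stip1, which joins HSP70 to HSP90, was at 7.41 and 8.59, and the mitochondrial protease Lonp1 at 6.79 and 8.20, both singled out after their values were seen. Of the 9 higher genes, Pfdn5 was at 5.98 and 4.78 and Fkbp5 at 6.54 and 5.87, also singled out after their values were seen. The heat shock factors had levels of 5.09 and 5.84 for Hsf1, the main regulator of the heat response, 5.63 and 5.29 for Hsf2, and 1.02 and 0.49 for Hsf4. Lowest per kb in the tumors were Unc45b, the myosin chaperone of muscle, at 0.65 and −0.73, Bag4 at 2.34 and 3.13, and Hspbap1 at 3.24 and 3.55. In the cultured cells they were Unc45b, Hsf4 and Hspbap1.

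Whole tumors were sequenced, and markers of host cells were measured in them. The leukocyte marker Ptprc had 1246 reads in the tumors and 3 in the cultured cells. The macrophage markers Adgre1, Csf1r and Cd68 had 1379, 1789 and 908 reads against 1, 2 and 41. The T cell markers Cd4 and Cd8a had 54 and 24 against 2 and 0, and Cd3e, also looked for, was not listed. The keratinocyte markers Krt5 and Krt14 had 12 and 13 reads in the tumors. Of 7 melanocyte lineage markers, 2 were among the 17285 genes: Mitf at a mean log2 CPM of 4.23 in the tumors and 2.67 in the cultured cells, and Pmel with 13 and 8 reads. Sox10, Tyr, Tyrp1, Dct and Mlana were not listed. The fibroblast markers Col1a1 and Pdgfrb were high in both, at 10.88 and 7.59 in the tumors and 9.70 and 6.65 in the cultured cells. Thus the cultured cells held few reads of leukocyte, endothelial and muscle markers but many reads of both fibroblast markers. The part of host cells in the members' levels was not tested.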

How the data were processed

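Poly(A) RNA was sequenced from 12 samples (RNeasy extraction, NEBNext Ultra II libraries). Per the submitters' notes, reads were processed with mm10, Bowtie2 2.3.2, TopHat2 2.1.1 and FastQC. For the annotation, counter, filter and comparison program, the sources used here give nothing. The 2 deposited tables list the same 17285 genes, with the authors' mean log2 CPM and the columns of their own comparison of knockout with wildtype (fold change, p-value, adjusted p-value). Only the mean log2 CPM was used. The planned edgeR test needed counts of single samples and was not run. The log base was checked: 2 to the power of the values sums to 1008800 CPM in the tumors and 1008400 CPM in the cultured cells.

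Members and lists were chosen with earlier results of these data known. Genes were named by a fixed rule: the 10 highest and 5 lowest members per kb, the 8 largest level differences each way, the highest of each class, near-identical pairs, and the ends of the co-chaperone list. All other members are given too. Lengths (union of exons), positions and transcripts were from GENCODE M21 on GRCm38, matched by Ensembl ID for all 61 members. Shared sequence is the share of a gene's 50-base stretches found, on the same strand, in transcripts of another gene. Protein sequences were not analysed here, and 1 further allele of the line is not reported here. The motif search was tested on simulated sequences. The scripts ran on Python 3.11.15 (scipy 1.17.1, pandas 2.3.3, numpy 2.4.6), with plots by matplotlib 3.10.9.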

Additional observations from a re-analysis of the deposited data

How the results depend on the processing

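The median level difference over members lay close to 0 and its sign depended on the setting. It was 0.09 over all members, −0.041 over members above a mean log2 CPM of 1 in both tables, and −1.11 percentile points when levels were ranked within each table. Relative to the median of genes above 1 in both tables it was 0.12, and relative to the median of all genes, an alternative added after seeing the data, it was −0.012. With the lowest level taken off, or without the 8 members that share over 30% of their sequence with other genes, both chosen after seeing the data, it was 0.09 and 0.10. The share of members with a heat shock element moved from 8.89% to 26.7% with 1 mismatch. Counts of members above a level minimum of 0 or 3 in place of 1 stayed within 1.5 times. With the length of the longest transcript, all 10 of the highest members per kb in the tumors and 9 of 10 in the cultured cells stayed, where Dnajc8 took the place of Dnajc19-ps. DESeq2, an unfiltered fit and fits without single replicates need counts of single samples and were not run. No paired analysis was possible because each table holds 1 mean per gene over all its samples.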
